A study of Homo sapiens with 6 samples.

Results

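The numbered ZNF genes of chromosome 19 encode zinc finger proteins that stand in tandem clusters along the chromosome. Members were all protein-coding rows of the deposited expression table whose name was ZNF followed by digits only and whose locus lay on chromosome 19. There were 208 of them among 13617 protein-coding genes and 15897 genes in all, and 16 further zinc finger genes of the chromosome with other names (HKR1, ZFP30 and ZNF585A among them) were left to the other genes. RNA labelled as from H1650, a line of human lung adenocarcinoma cells, was sequenced from 3 libraries labelled wild type, called control here, and 3 labelled shSETD2, to find the genes that respond to depletion of SETD2, the enzyme that trimethylates lysine 36 of histone H3. Per the study's methods, several short hairpin RNA constructs against SETD2 were cloned into a lentiviral vector, and the shSETD2 libraries are numbered as the constructs are. Whether these numbers stand for constructs or for replicates is not stated, so the 3 libraries may carry different hairpins. Nothing in the labels shows whether the libraries came from separate cultures, so the p-values measure the spread between these libraries, which may be technical. Levels are FPKM, a measure of fragments scaled by transcript length and library size, and sequencing depth is unknown.

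Most proteins of the family join an amino-terminal KRAB domain to an array of C2H2 fingers, each holding a zinc ion between a pair of cysteines and a pair of histidines. Through KRAB they recruit the corepressor TRIM28 and the histone methyltransferase SETDB1, which places trimethylation on lysine 9 of histone H3, and many of them bind and silence transposable elements. The family grew by tandem duplication, and the finger exons of its genes are known to carry lysine 9 and lysine 36 trimethylation together. The repeat that makes up the family is shown by the coding bases of a finger of ZNF91, which silences SVA elements and had the most fingers of any member, 31. The bases lie at chr19:23544896-23544979 on the minus strand (GRCh37), and capitals mark the codons of the cysteines and histidines.
ZNF91 finger: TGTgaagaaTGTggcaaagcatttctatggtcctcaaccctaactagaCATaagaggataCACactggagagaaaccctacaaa
This unit has 84 bases for 28 residues, and 27 steps from a finger of ZNF91 to the next had exactly this length.

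SETD2 itself overlapped between the groups. Control 1, 2 and 3 had an FPKM of 18, 10.2 and 17.6 for it, and shSETD2 1, 2 and 3 had 8.97, 8.09 and 12.2, so that control 2 lay below shSETD2 3. Values of each gene below follow this order. The log2 fold change was -0.58 (SE 0.240, limma adjusted p = 0.0641), with a 95% interval from -1.16 to 0.00463, and it passed the threshold with the replicate block (adjusted p = 0.0156) and without control 2 (-0.83, adjusted p = 0.00666), while median ratio scaling gave -0.25 (adjusted p = 0.377) and leaving out control 1 gave -0.45 (adjusted p = 0.181). SETD2 also passed without shSETD2 3 (-0.73, limma adjusted p = 0.0420). The paper reports similar knockdown by its shRNA constructs in H1650 cells, and lower SETD2 by qPCR and western blotting. Because SETD2 overlapped here, libraries are named by their labels, and each direction given is that of the libraries so labelled.

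Markers of other cell types also moved with the labels. Of 14 lung epithelial markers, 3 were among the genes analysed here, and NKX2-1, the lineage factor of the distal lung, averaged 1.65 in control and was listed at 0 in every shSETD2 library. ABCA3 averaged 13.5 and 8.32, and LAMP3 went the other way, 0.584 and 1.23. The summed FPKM of 10 epithelial markers was 16.7 to 17.9 in the control libraries and 406 to 459 in the shSETD2 libraries, led by KRT18 in both, while CDH1 averaged 1.27 in control and 0.0120 in shSETD2. Of 9 mesenchymal markers, led by VIM in both groups, 8 reached a mean of 1 in control and 4 in shSETD2, with sums of 108 to 123 and 170 to 180. Among renal markers, PAX8 averaged 0.0172 in control and 30.8 in shSETD2, PAX2 0.739 and 9.93, and EMX2 averaged 2.10 in control and was listed at 0 in all 3 shSETD2 libraries. Those of neuronal and embryonic kidney lines, 8 genes, summed to 101 to 107 in control, led by NEFM, and to 28.5 to 32.5 in shSETD2, with NEFM, NEFL and LIN28B at 0 in all 3 shSETD2 libraries. DPYSL3 of this list went the other way, from a mean of 0.306 to 28.6, and made up most of the shSETD2 sum. CD14 was the only leukocyte marker analysed, at a summed 0.315 to 0.323 in control and 0.567 to 0.621 in shSETD2. The part of these differences in the zinc finger results was not tested, nor was whether the libraries of both labels come from the same cells, and in bulk RNA fewer cells of a kind and less RNA per cell cannot be told apart.

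The family was expressed at low levels. Summed over members, FPKM was 596, 588 and 561 in control against 405, 407 and 405 in shSETD2, and all 3 shSETD2 sums lay below every control sum. Between 143 and 151 members reached an FPKM of 1 in a control library, against 131 to 135 in an shSETD2 library. No member was at 0 in all 6 libraries. Across the 208 members, log2(FPKM + 1) correlated at 0.94 to 0.95 between libraries of a group and at 0.61 to 0.64 between groups, a description of genes that share each library and its scaling.

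The test was run on genes whose FPKM averaged 0.5 or more across the 6 libraries, and 188 members passed this filter. Fold changes are on the scale of log2(FPKM + 1), which understates the change of genes as low as these. Of the 188, 109 were lower (58.0%) and 39 higher (20.7%) in shSETD2 at a limma adjusted p under 0.05, beside 51.8% lower and 26.8% higher among all 14068 genes tested. Of 207 numbered ZNF genes of other chromosomes, 58.9% were lower and 14% higher, and of 720 other protein-coding genes of chromosome 19, 54.4% were lower and 25.1% higher. The filter let in 21 members through the shSETD2 libraries while their control mean was under 0.5, and 20 of the 39 higher members were among them. Likewise 13 of the 109 lower members had an shSETD2 mean under 0.5.

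Centring matters for these counts. Over the whole set tested, the median log2 fold change was -0.29 with FPKM as deposited and -0.01 after median ratio scaling of the libraries. Members had a median of -0.40, which is -0.11 relative to all genes, and after median ratio scaling -0.19, or -0.17 relative to all genes, while quantile normalization gave -0.04 and turned the difference from all genes to 0.06. Pseudocounts of 0.1 and 0.01 took that difference to -0.24 and -0.25, and a mean FPKM of at least 2 took it to -0.32. Higher members made up 26.4% of those past the threshold as deposited, 37.7% after median ratio scaling and 47.5% after quantile normalization, where the same shares over all genes were 34.1%, 49.6% and 43.7%. With a mean FPKM of at least 2 the share was 14.5% in members and 37.6% over all genes. Median ratio scaling moved the median of all genes up by 0.28, so it could end lower calls but hardly higher ones. All 39 higher members stayed higher under it and 76 of the 109 lower members stayed lower, with none called in the other direction. Quantile normalization turned 2 of the lower calls, ZNF765 and ZNF549, to higher.

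Higher members were grouped along the chromosome. A gap of more than 1 Mb between the starts of neighbouring members was taken to begin a new cluster, which gave 15 clusters, 7 of them with at least 10 members and 5 with a single member. Of the 39 higher members, 31 stood in 2 clusters, from ZNF101 to ZNF254 (chr19:19779605-24216207, first to last start) and from ZNF175 to ZNF331 (chr19:52074551-54024235). These clusters held 60 of the members tested, and 15 of the 60 were lower. Outside them 8 of 128 members tested were higher and 94 were lower. These counts by cluster were chosen after their values were seen. Of all 39 higher members, 20 had a control mean under 0.5 and so passed the filter only through the shSETD2 libraries. With a mean FPKM of at least 2, higher members in these clusters fell from 31 to 8 and lower ones from 15 to 9. Outside the clusters, higher members then fell from 8 to 2 and lower ones from 94 to 50. This filter tests fewer genes, so these counts are not shares. Of all 10562 genes then tested, 3128 were higher and 5186 lower. Quantile normalization raised the 8 outside to 18 and took the 94 to 51.

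**Figure D1:**
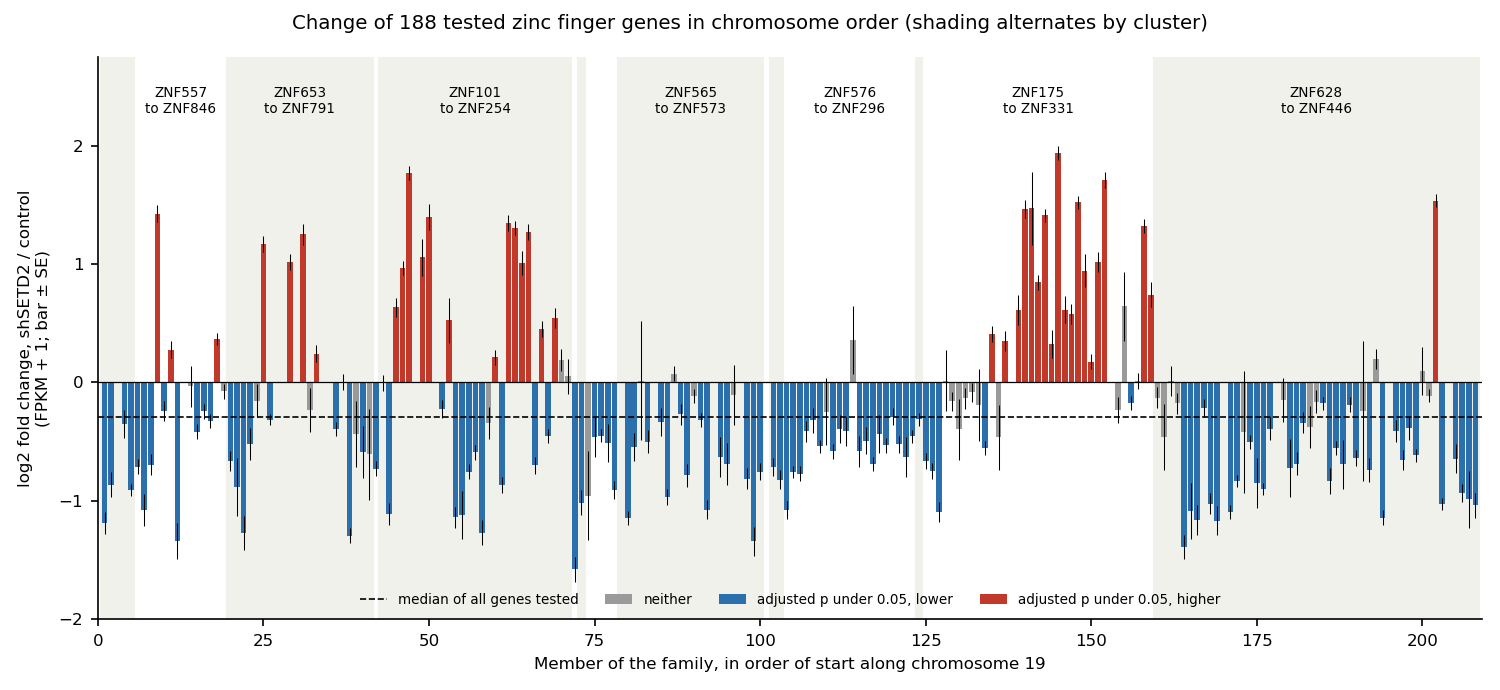
Log2 fold change (FPKM + 1, shSETD2 over control, n = 3 libraries a group) of the 188 members tested, as bars with their standard errors in order of start along chromosome 19; gaps are members not tested, shading alternates by cluster and the dashed line is the median of all genes, -0.29. Red bars crowd in the ZNF101 to ZNF254 and ZNF175 to ZNF331 clusters, with 31 of 39 higher members as deposited.

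From ZNF175 to ZNF331, 35 members were listed and 33 tested, of which 18 were higher and 5 lower, with a median log2 fold change of 0.35 (0.59 after median ratio scaling). Its summed FPKM was 53.3 to 56.2 in the control libraries and 79.6 to 83.7 in the shSETD2 libraries. Within it, 15 tested members in a row from ZNF480 to ZNF347 were all higher, the longest run of like calls in the family, though it includes ZNF611, whose call depends on single libraries. ZNF600 was listed at 0, 0 and 0.0284 in control against 2.72, 3.06 and 2.81, the largest log2 fold change of any member, 1.94. ZNF347 stood at 0.0235, 0.0101 and 0.0226 in control and at 2.46, 2.07 and 2.50 in shSETD2 (log2 fold change 1.71). ZNF528 gave 0.148, 0.185 and 0.0903 against 2.18, 2.37 and 1.91 (log2 fold change 1.47). In all of these the groups lay far apart and the control libraries were near 0, so they passed the filter only through the shSETD2 libraries.

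ZNF320 was higher from a base already expressed in control: 1.73, 1.69 and 1.53 against 6.49, 6.76 and 6.57, a ratio of means of 4.01 (log2 fold change 1.52, SE 0.0546, limma adjusted p = 9.67e-07). ZNF808 stood at 0.322, 0.227 and 0.180 in control and 1.62, 1.68 and 4.82 in shSETD2 (log2 fold change 1.47). Its shSETD2 3 library stood apart from the others, and its locus overlaps that of ZNF701 on the same strand, so its level is uncertain. ZNF331, described as a tumor suppressor gene silenced by methylation in several cancers, gave 0.836, 0.531 and 0.700 against 1.67, 2.20 and 1.61 (log2 fold change 0.74). ZNF611 showed 2.02, 2.02 and 2.12 against 2.20, 3.38 and 2.98 (log2 fold change 0.32, limma adjusted p = 0.0424), and leaving out any library other than shSETD2 1 took it out of the calls, at adjusted p of 0.0807 to 0.113. Some members of the cluster were not higher. ZNF649, a KRAB repressor whose locus overlaps ZNF577 on its strand, fell from 2.39, 2.55 and 3.01 to 0.659, 0.632 and 0.816, a ratio of means of 3.77 in favor of control (log2 fold change -1.10). ZNF350, a BRCA1 partner also called ZBRK1, gave 1.58, 1.85 and 1.96 against 1.37, 1.70 and 1.44, with groups that overlapped (limma adjusted p = 0.117) and a log2 fold change of -0.16 that turned to 0.23 with quantile normalization. ZNF765 gave 1.59, 1.65 and 1.47 against 1.2, 1.39 and 1.23 (log2 fold change -0.17), and it stood at 0.03 after median ratio scaling and 0.24 after quantile normalization.

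The ZNF101 to ZNF254 cluster held 29 members, 27 tested, of which 13 were higher and 10 lower (median log2 fold change 0.19, and 0.35 after median ratio scaling). Its sum was 52.4 to 59.3 FPKM in control and 45.8 to 53.4 in shSETD2, with ranges that overlap. ZNF93, which binds and silences LINE-1 elements, was at 0, 0 and 0.0235 in control and at 2.54, 2.49 and 2.29 in shSETD2 (log2 fold change 1.77). ZNF43 gave 0.0611, 0.0231 and 0 against 1.46, 1.73 and 1.66 (log2 fold change 1.35). ZNF730 was listed at 0 in every control library and at 1.44, 1.56 and 1.25 in shSETD2 (log2 fold change 1.27). No control library reached 0.1 for any of these genes, so they passed the filter only through the shSETD2 libraries.

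ZNF91 was already on in control, at 1.99, 2.03 and 1.75, and rose to 2.92, 3.24 and 2.84 (log2 fold change 0.45, SE 0.0688, limma adjusted p = 0.000935), or 0.70 after median ratio scaling and 0.78 after quantile normalization. Between and beside the higher genes stood lower ones. ZNF738 fell from 5.16, 4.40 and 4.36 to 1.19, 1.69 and 1.16 (log2 fold change -1.27). ZNF100 fell from 4.62, 4.46 and 4.62 to 2.27, 2.03 and 1.88 (log2 fold change -0.87), while ZNF43, the next tested member along the chromosome, went from near 0 to 1.62 on average. Another such pair was ZNF730 with ZNF724, named here after its values were seen, which gave 10.9, 10.2 and 9.88 against 6.34, 6.24 and 5.41, though 55.1% of the 50-base windows of its transcript occur in another gene, so its level is uncertain.

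**Figure D2:**
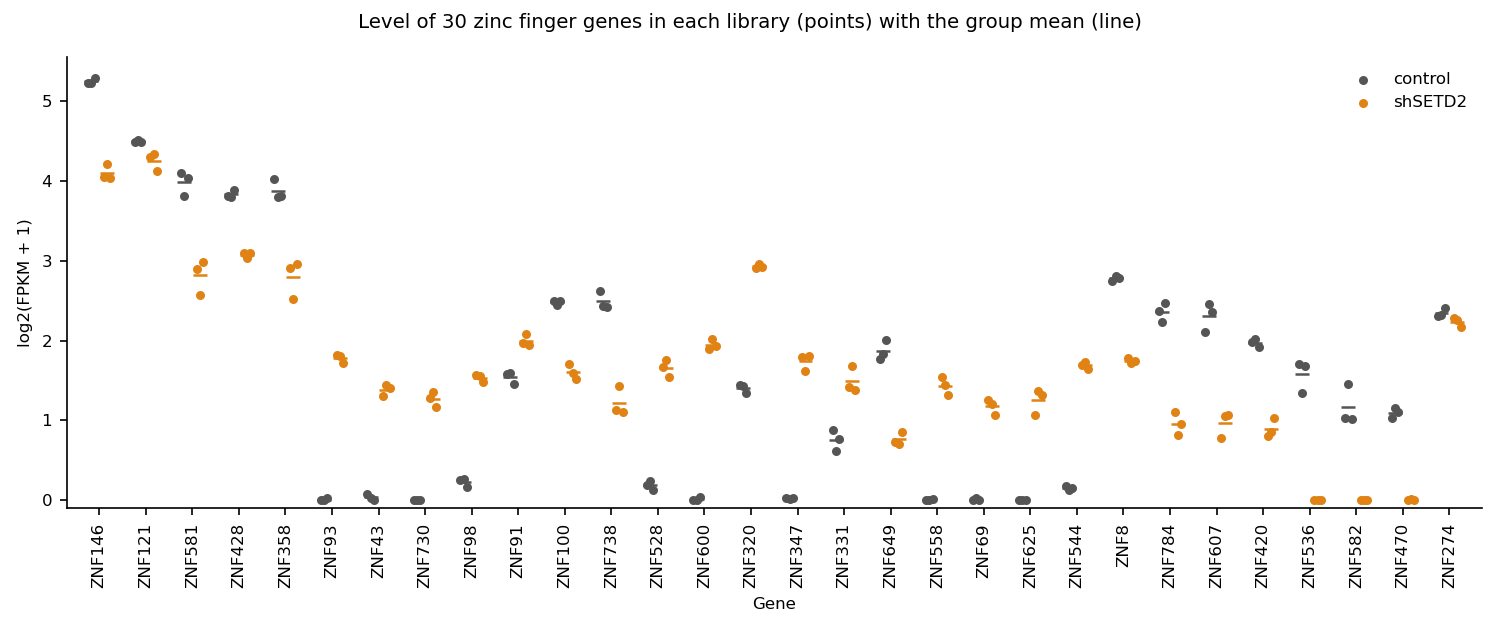
Level of 30 members, as log2(FPKM + 1), in each of the 3 control (grey) and 3 shSETD2 (orange) libraries, with lines at the group means. ZNF93, ZNF43, ZNF730, ZNF600, ZNF347, ZNF558, ZNF69 and ZNF625 lay near 0 in all control libraries, and ZNF536, ZNF582 and ZNF470 near 0 in all shSETD2 libraries.

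In 3 further clusters of the long arm most members were lower. None of the 20 members tested from ZNF576 to ZNF296 was higher and 18 were lower, with a median log2 fold change of -0.51, beside 8 lower and 6 higher among 16 other protein-coding genes between the same starts. After median ratio scaling 11 of the 20 stayed lower and none was higher, and quantile normalization gave 7 lower and 1 higher. From ZNF565 to ZNF573, 14 of 18 were lower and none higher (median -0.59), beside 3 lower and none higher of 5 other genes (median -0.50), and scaling gave 10 lower and 1 higher by median ratio and 7 lower and 2 higher by quantile. The last cluster before the end of the long arm, from ZNF628 to ZNF446, had 45 members tested, 32 lower and 1 higher (median -0.61), beside 9 lower and 1 higher among 17 other genes, while median ratio scaling gave 22 lower and 3 higher and quantile normalization 20 and 6.

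Several members in these clusters have a described role. ZNF224, a repressor of the aldolase A gene, stood at 4.30, 2.81 and 3.06 in control and 1.95, 2.02 and 1.75 in shSETD2 (log2 fold change -0.58, limma adjusted p = 0.00602), and it missed the threshold after median ratio scaling (-0.33, adjusted p = 0.0542) and quantile normalization (-0.26, adjusted p = 0.128), though it stayed below 0 in every alternative. ZNF420, known as Apak, a negative regulator of p53 whose locus overlaps an unnamed gene on its strand, fell from 2.96, 3.05 and 2.78 to 0.748, 0.810 and 1.05 (log2 fold change -1.07). ZNF568, whose mouse counterpart represses a placental promoter of Igf2, gave 1.58, 1.79 and 1.65 against 1.15, 1.18 and 1.10 (log2 fold change -0.32, but -0.11 with adjusted p = 0.110 after median ratio scaling and 0.10 with quantile normalization). ZNF304, which has been tied to silencing of the INK4-ARF locus, gave 3.55, 2.94 and 3.78 against 2.10, 2.44 and 2.56 (log2 fold change -0.39), 0.10 below the median of all genes, and it lost its call after median ratio scaling (-0.13, adjusted p = 0.263) and quantile normalization (-0.09, adjusted p = 0.435). ZNF607 fell from 3.31, 4.50 and 4.14 to 0.720, 1.07 and 1.10 (log2 fold change -1.34), and ZNF784 from 4.16, 3.68 and 4.53 to 1.15, 0.765 and 0.946, with the largest negative value in the ZNF628 to ZNF446 cluster, -1.39. ZNF274, which binds the finger exons of other ZNF genes and brings SETDB1 to them, did not pass the test: 3.96, 3.97 and 4.29 against 3.85, 3.76 and 3.49 (log2 fold change -0.11, limma adjusted p = 0.124). Its groups did not overlap, and median ratio scaling turned the value to 0.17, called higher (adjusted p = 0.0315).

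**Figure D3:**
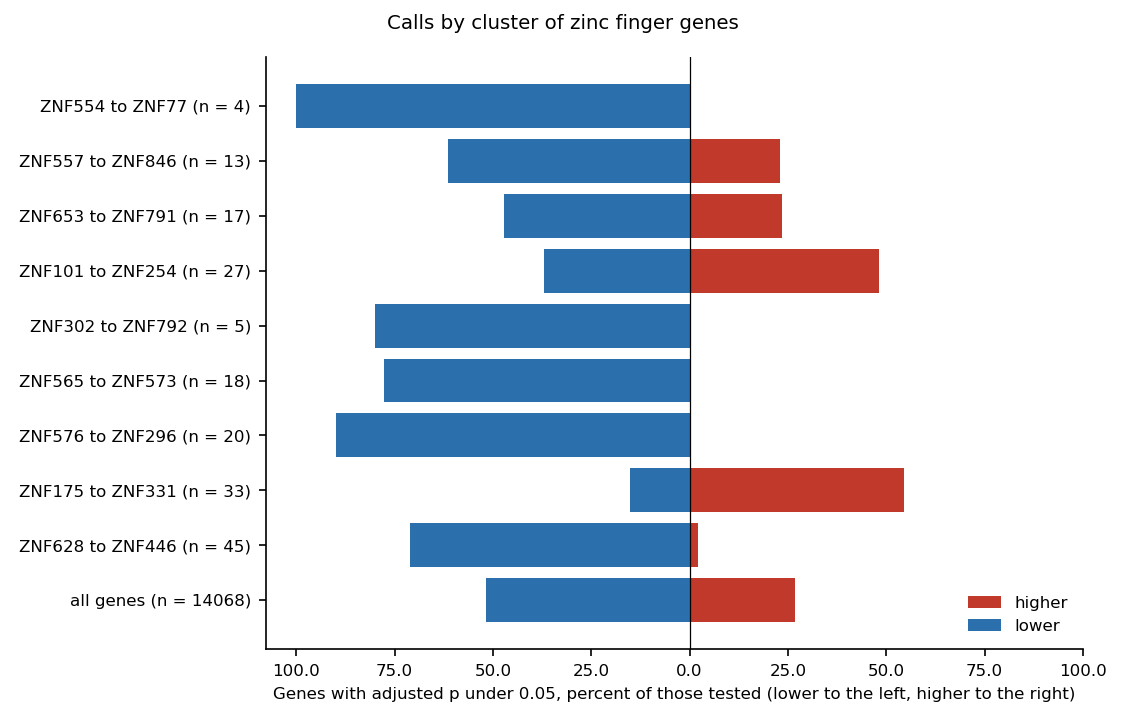
Share of the tested members of each cluster with at least 4 tested members that were lower (blue, to the left) or higher (red, to the right) in shSETD2 at a limma adjusted p under 0.05, with the same for all 14068 genes at the bottom (51.8% lower, 26.8% higher). Higher members reached 54.5% in the ZNF175 to ZNF331 cluster and 48.1% in the ZNF101 to ZNF254 cluster, and after median ratio scaling 57.6% and 55.6%, beside 37.7% of all genes.

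Further clusters of the short arm held both directions, beside 26.8% higher and 51.8% lower of all genes. Of 13 members tested from ZNF557 to ZNF846, 3 were higher (23.1%) and 8 lower (61.5%), beside 10 higher and 15 lower of 30 other genes. Of 17 from ZNF653 to ZNF791, 4 were higher (23.5%) and 8 lower (47.1%), beside 2 lower and none higher of 3 other genes. Median ratio scaling took the first to 3 higher and 4 lower and its median from -0.25 to 0.06, and quantile normalization took the second to 5 higher and 3 lower. ZNF558 was at 0, 0 and 0.0125 in control and 1.91, 1.71 and 1.5 in shSETD2 (log2 fold change 1.43). It stands next to ZNF414, which fell from 3.47, 3.80 and 3.08 to 1.80, 1.52 and 1.91 (log2 fold change -0.70). ZNF69 was at 0, 0.0198 and 0 against 1.39, 1.3 and 1.1, and ZNF625 at 0 in all control libraries against 1.10, 1.59 and 1.49. Those short-arm genes were off in control and on in shSETD2, and they passed the filter only through the shSETD2 libraries. ZNF709 went the other way, from 2.14, 2.18 and 2.41 to 0.367, 0.263 and 0.330, a ratio of means of 7.01 in favor of control (log2 fold change -1.30), but 92.3% of the 50-base windows of its transcript also occur in the transcript of another gene, so its level is uncertain. Further lower members were ZNF823 (log2 fold change -1.28), ZNF559 (-1.34, overlapping a readthrough gene with ZNF177) and, at the first start of the family, ZNF554, which fell from 1.80, 2.05 and 1.5 to 0.157, 0.287 and 0.206 (-1.19).

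Neighbouring members mostly shared a direction. Of 100 neighbouring pairs within clusters in which both passed the threshold, 63 were both lower, 20 both higher and 17 opposite, so 83.0% were alike, beside 63.4% of 426 neighbouring pairs of other protein-coding genes of the chromosome. These are calls as deposited, of which 73.6% were lower among members and 68.4% among those other genes. An excess of lower calls by itself makes like pairs common. The pair with the widest opposite change was ZNF544, at 0.135, 0.0936 and 0.111 in control and 2.24, 2.33 and 2.13 in shSETD2 (log2 fold change 1.54), and ZNF8 just downstream, which fell from 5.71, 6.02 and 5.87 to 2.45, 2.29 and 2.35 (log2 fold change -1.03). ZNF544 was the only member called higher among the 45 tested from ZNF628 to ZNF446, where median ratio scaling added ZNF586 and ZNF274. Both ZNF544 and ZNF8 overlap another listed gene on the same strand, and reads from such genes may have been split between them. In all, 79 of the 208 members overlapped another listed gene.

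A stricter rule asked for an FPKM of at least 1 in every library of a group and under 0.1 in every library of the other. By it 8 members were on in shSETD2 only, beside 1.53% of all protein-coding genes listed, and 3 were on in control only, beside 4.13%. The 8 were ZNF558, ZNF69, ZNF625, ZNF93, ZNF43, ZNF730, ZNF600 and ZNF347, and 5 of them belonged to the ZNF101 to ZNF254 and ZNF175 to ZNF331 clusters. On in control only were ZNF536, ZNF582 and ZNF470, which passed the filter only through the control libraries. ZNF536, a brain-expressed repressor of neuronal differentiation, stood at 2.28, 1.54 and 2.20 in control and was listed at 0 in all 3 shSETD2 libraries (log2 fold change -1.58). ZNF582, a gene often methylated in cervical cancer, gave 1.04, 1.73 and 1.03 against 0 in every shSETD2 library, and ZNF470 1.05, 1.23 and 1.15 against 0, 0.00899 and 0. After median ratio scaling 1 of the 3 and, in the other direction, 10 members met the rule. The shares over all protein-coding genes under this scaling are not given here, so the change is not one particular to members.

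**Figure D4:**
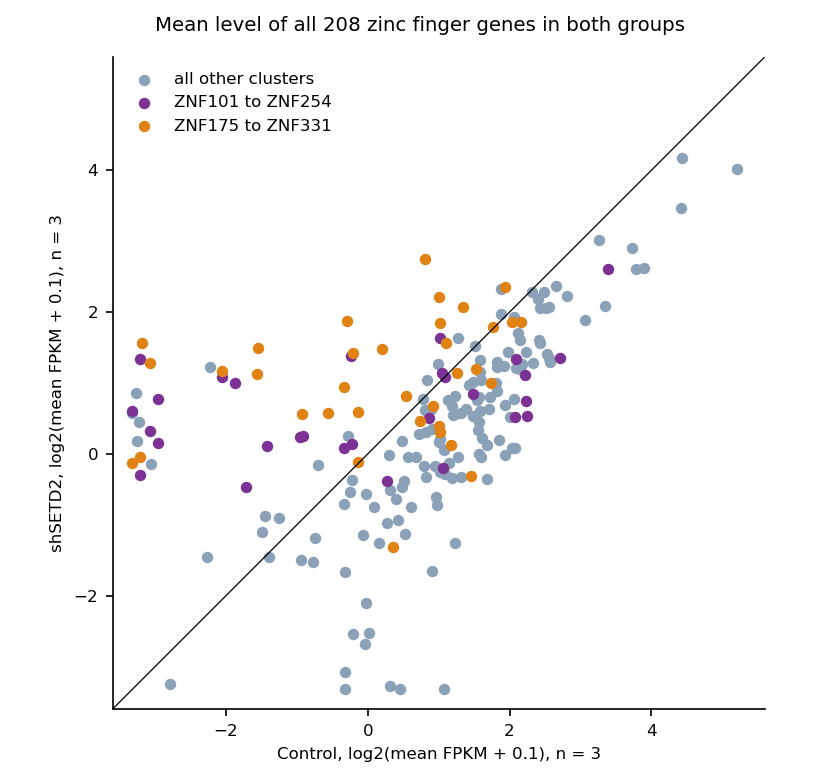
Mean level of all 208 members in control (x axis) and shSETD2 (y axis), each as log2(mean FPKM + 0.1) over 3 libraries, with the line of equal levels. Of the 60 tested members of the ZNF101 to ZNF254 (purple) and ZNF175 to ZNF331 (orange) clusters, 31 were higher and 15 lower.

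The 250 bases upstream of the annotated start are shown for the members on in a single group whose window lies wholly outside the deposited locus, with each CG in capitals (GRCh37). They are chr19:53290045-53290294 on the minus strand for ZNF600, chr19:11998347-11998596 on the plus strand for ZNF69, chr19:12267550-12267799 on the minus strand for ZNF625 and chr19:57078587-57078836 on the plus strand for ZNF470.
ZNF600: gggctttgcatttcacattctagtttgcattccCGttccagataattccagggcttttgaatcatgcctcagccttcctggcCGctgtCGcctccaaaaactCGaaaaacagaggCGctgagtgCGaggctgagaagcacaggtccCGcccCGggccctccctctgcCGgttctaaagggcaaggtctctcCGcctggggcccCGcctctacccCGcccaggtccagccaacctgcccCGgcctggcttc
ZNF69: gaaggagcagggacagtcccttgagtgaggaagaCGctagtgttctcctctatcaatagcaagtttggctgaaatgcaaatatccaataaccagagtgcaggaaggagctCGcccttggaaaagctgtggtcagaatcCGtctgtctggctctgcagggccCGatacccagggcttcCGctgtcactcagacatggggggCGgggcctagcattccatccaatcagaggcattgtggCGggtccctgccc
ZNF625: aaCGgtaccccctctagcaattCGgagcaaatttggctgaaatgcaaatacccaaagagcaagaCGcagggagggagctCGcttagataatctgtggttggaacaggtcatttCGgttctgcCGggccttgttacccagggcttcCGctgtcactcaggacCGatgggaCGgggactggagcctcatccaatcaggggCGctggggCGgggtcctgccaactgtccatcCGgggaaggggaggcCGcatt
ZNF470: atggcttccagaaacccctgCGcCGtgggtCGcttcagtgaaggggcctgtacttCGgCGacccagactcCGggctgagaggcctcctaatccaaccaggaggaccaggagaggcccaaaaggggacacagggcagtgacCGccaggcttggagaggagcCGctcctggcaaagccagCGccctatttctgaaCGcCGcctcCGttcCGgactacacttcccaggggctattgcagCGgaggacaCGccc
ZNF600 and ZNF625 held 13 CG each, ZNF69 held 7, and ZNF470, on in control only, held 15. The median window of 38 higher members had 14.5 CG and 59.8% G and C, that of 108 lower members 16.0 CG and 59.8%, and that of 13437 protein-coding genes 22.0 CG and 66.4%. ZNF69 and ZNF625 both hold the octamer ATGCAAAT, which on either strand (ATTTGCAT) occurred in 1.36% of the protein-coding windows, in 9 of 205 member windows and in 6 of the 21 windows from ZNF653 to ZNF791. Those 6 also included ZNF441 and ZNF700, lower as deposited, and whether the octamer bears on direction was not tested.

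Some members of a cluster had closely similar windows and opposite calls. Among 20910 pairs of member windows the median identity was 46.0%, and 52 pairs reached 80%, each pair within a single cluster. In 32 of the 52 both genes passed the threshold, 16 pairs in the same direction and 16 in opposite directions as deposited. The same genes recur in many of these pairs, so the pairs are not independent. Many lie in the ZNF101 to ZNF254 cluster, where 13 tested members were higher and 10 lower, so opposite calls are common there in any pairing. Several of the opposite pairs include ZNF66, whose call depends on scaling. ZNF93 and ZNF66, named here after their values were seen, were 86.0% alike upstream. ZNF93 was higher, while ZNF66 was lower as deposited (log2 fold change -0.23, above the median of all genes) and stood at -0.01 after median ratio scaling. Among opposite pairs with both windows outside the deposited loci, ZNF492 (chr19:22816876-22817125, plus strand) and ZNF724 (chr19:23433197-23433446, minus strand) were most alike, at 77.2%, and are shown with the bases that differ in an end-to-end alignment in capitals.
ZNF492: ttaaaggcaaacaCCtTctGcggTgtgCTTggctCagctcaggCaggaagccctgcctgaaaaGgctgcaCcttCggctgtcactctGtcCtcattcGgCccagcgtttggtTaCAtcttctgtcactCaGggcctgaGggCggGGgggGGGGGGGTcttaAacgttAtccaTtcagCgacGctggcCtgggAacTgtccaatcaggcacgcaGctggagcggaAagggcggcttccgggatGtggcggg
ZNF724: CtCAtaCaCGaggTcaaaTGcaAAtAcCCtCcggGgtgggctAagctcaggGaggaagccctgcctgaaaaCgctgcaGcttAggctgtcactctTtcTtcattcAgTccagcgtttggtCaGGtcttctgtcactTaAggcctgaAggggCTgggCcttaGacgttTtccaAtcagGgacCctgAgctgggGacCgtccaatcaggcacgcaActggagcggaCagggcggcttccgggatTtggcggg
ZNF492 rose from 0.707, 0.986 and 0.551 to 2.44, 2.74 and 2.34, a ratio of means of 3.35, and ZNF724 fell to 6 from 10.3 on average.

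Features of the proteins were compared by call. Translated from the annotated coding sequence, the median protein had 13 fingers in the higher members, 12 in the lower and 12 in those called neither way, with 7, 4 and 5 linkers of the canonical TGEKP form. Identity to the nearest other member had a median of 70.2% in 37 higher members, 55.1% in 91 lower and 61.5% in 36 others for which a match was found. By cluster the median was 72.4% from ZNF101 to ZNF254 and 64.8% from ZNF175 to ZNF331. It was 66.6% from ZNF576 to ZNF296, where no tested member was higher as deposited, and 51.0% from ZNF628 to ZNF446. Close copies can share reads. The closest pair, ZNF587 and ZNF417, had 98.1% identity and both were lower as deposited, ZNF587 (not called after median ratio scaling, adjusted p = 0.302) from 6.33, 5.22 and 5.88 to 4.64, 3.68 and 4.06 and ZNF417 from 4.54, 5.39 and 5.83 to 3.01, 2.80 and 3.05. ZNF98 and ZNF492 (90.9%) were both higher, and ZNF98 gave 0.193, 0.205 and 0.121 against 1.97, 1.95 and 1.78. ZNF799 and ZNF443 (89.3%) differed in call: ZNF799 was lower (log2 fold change -0.40, but 0.00 with quantile normalization), and ZNF443 gave 2.62, 2.93 and 2.72 against 2.53, 2.82 and 2.94, which was called higher after median ratio scaling (0.26, adjusted p = 0.0114). How the authors' counting divided reads among such copies is not given, so the levels of these pairs are uncertain.

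**Figure D5:**
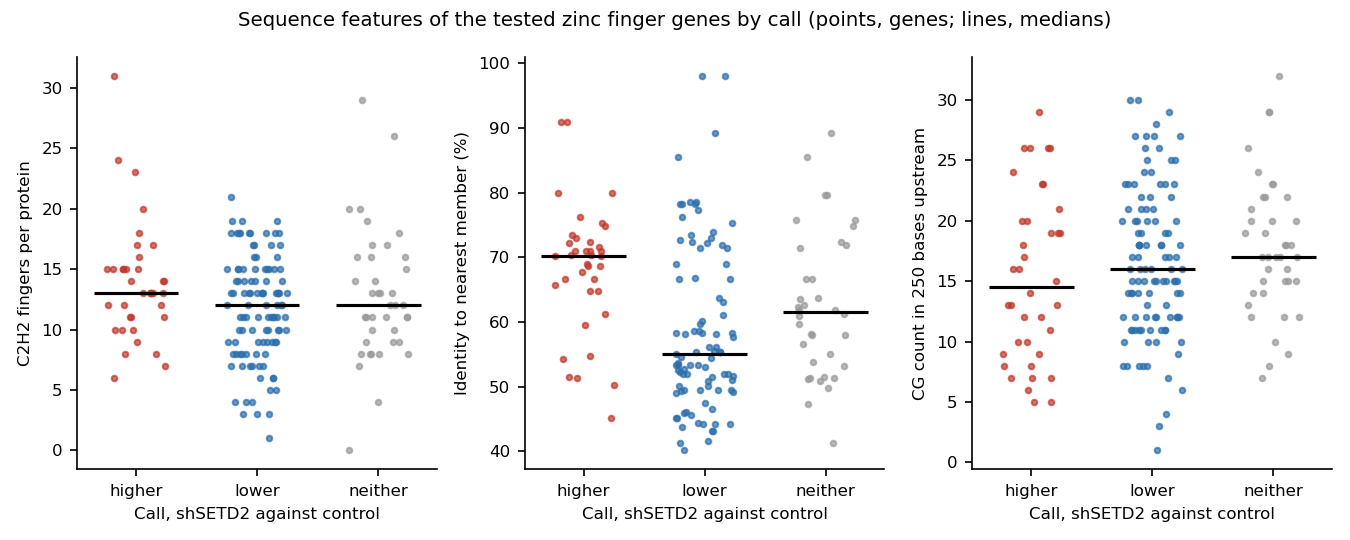
Number of C2H2 fingers, identity to the nearest other member in percent and CG count in the 250 bases upstream, for each tested member (points) by call as deposited, with medians as lines. Median identity was 70.2% for higher and 55.1% for lower members, and the finger counts of the calls overlap almost wholly.

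The 6 most abundant members were all lower as deposited. ZNF146, a protein made almost wholly of fingers and overexpressed in some carcinomas, had the highest mean of the family: 36.3, 36.3 and 37.9 in control and 15.5, 17.5 and 15.3 in shSETD2, a ratio of 2.29 in favor of control (log2 fold change -1.15, SE 0.0585, limma adjusted p = 4.54e-06). ZNF581 fell from 16.1, 13 and 15.3 to 6.46, 4.91 and 6.88, ZNF358 from 15.2, 12.9 and 12.9 to 6.51, 4.72 and 6.75, and ZNF428 from 13, 12.8 and 13.8 to 7.51, 7.17 and 7.56 (log2 fold changes -1.16, -1.08 and -0.76). Control and shSETD2 levels of these 4 genes did not overlap, though ZNF581 and ZNF358 share bases of their loci with other genes on the same strand. ZNF460 gave 24.5, 25.1 and 14 against 10.9, 11.1 and 10.9, with control 3 far below the other control libraries, and it missed the threshold after median ratio scaling (-0.52, adjusted p = 0.0604; it stayed below 0 in every alternative). ZNF121 gave 21.5, 21.7 and 21.5 against 18.6, 19.1 and 16.4 (log2 fold change -0.25), which became 0.09 after median ratio scaling.

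Some members scattered within a group more than between groups. In 8 members with a group mean of at least 1, libraries of that group differed by more than 3-fold. ZNF551 gave 0.584, 4.24 and 0.515 in control and 2.62, 0.470 and 0.432 in shSETD2. ZNF264 gave 3.21, 0.511 and 2.90 against 2.02, 0.202 and 1.85. Both were named after their values were seen. None of the 8 passed the threshold, which a spread this wide within a group makes unlikely.

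Partners that KRAB zinc finger proteins work with were examined as a list. Of a list of 36 corepressors and chromatin factors, all tested, 25 were lower and 5 higher (median log2 fold change -0.48), beside 51.8% and 26.8% of all genes. After median ratio scaling 17 were lower and 10 higher (median -0.15), beside 5394 lower and 5305 higher of the 14068 genes. TRIM28, the KRAB corepressor, fell from 65.0, 63.9 and 66.4 to 38.5, 35.2 and 38.2 (log2 fold change -0.79, SE 0.0456, limma adjusted p = 8.18e-06), and SETDB1, which it recruits, from 9.11, 8.79 and 9.26 to 3.92, 3.74 and 3.68 (-1.07). CBX5, the heterochromatin protein HP1 alpha, fell from 37.7, 37.9 and 36.4 to 23.4, 24.8 and 23.2 (-0.63). These 3 stayed lower under each scaling. SMARCAD1, a remodeler that binds TRIM28, was lower at -0.70, and MPHOSPH8, a HUSH complex subunit, at -0.51 (not called after median ratio scaling, adjusted p = 0.0513). ATF7IP, the partner of SETDB1, MORC2, a HUSH effector, and ATRX, a histone chaperone subunit, had small values of -0.26, -0.20 and -0.18 that turned to 0.05, 0.12 and 0.13 after median ratio scaling. Going the other way, DAXX (0.75), PPHLN1 (0.35) and UHRF1 (0.31) of the list were called higher under each scaling.

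The lysine 9 methyltransferases SUV39H1 and SUV39H2 moved in opposite directions, while EHMT1 (-0.01) and EHMT2 (0.05) did not pass the test as deposited and were called higher after median ratio scaling. SUV39H1 rose from 4.14, 8.22 and 4.78 to 15, 15 and 14.8 (log2 fold change 1.29, limma adjusted p = 0.00129), with control 2 above the other control libraries, while SUV39H2 fell from 10, 9.47 and 9.98 to 2.79, 2.48 and 3.00 (-1.53). In the NuRD deacetylase complex, the remodeler CHD3 was higher (1.10), while HDAC2 (-1.08), MTA1 (-1.43) and RBBP7 (-1.47) were lower. CHD4 (-0.32) stood at 0.02 after median ratio scaling, and MTA2 (0.10) did not pass the test as deposited, was called higher after median ratio scaling (0.44) and lower after quantile normalization. The de novo DNA methyltransferases were lower as well, DNMT3A at -1.25 and DNMT3B at -1.30. The directions of SUV39H1, SUV39H2, CHD3, HDAC2, MTA1, RBBP7, DNMT3A and DNMT3B held under each scaling.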

How the data were processed

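Total RNA of 6 H1650 libraries was sequenced. Per the study's methods and the submitters' processing notes, the authors aligned reads to hg19 using HISAT2 and derived the deposited FPKM of each gene by Ballgown. Versions, the annotation release, the filter that chose the listed genes and whether counting used strand are not given in the sources used here. The library kit was stranded. Low values were not whole multiples of a single step, so depth is unknown and no counting interval is given. An exact 0 may be a failed estimate. A second deposited table holds the authors' own comparison of the groups and was not used.

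Genes averaging an FPKM of 0.5 or more were fitted on log2(FPKM + 1) with limma 3.58.1 (lmFit, eBayes with an intensity trend; R 4.3.3), groups only, with Benjamini-Hochberg adjustment over all genes tested and a threshold of 0.05. The fit was tested on simulated data. Ratios of means were taken only where no library was at 0. Members, lists and tests were chosen with earlier results of these data known. Genes named were the 6 with the highest mean, the 8 with the largest log2 fold change in each direction among members past the threshold with groups that did not overlap, members on in a single group, members with a described role, the 3 neighbouring pairs most opposite in call, the 3 closest protein pairs, and 8 KRAB partners with any other partner past the threshold with a log2 fold change beyond 1 in size. Further genes named in passing were chosen after their values were seen and are not in the count of 64 under the alternatives. ZNF154, ZNF671, ZNF471 and ZNF534 of the role list were not analysed here.

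Protein features, transcript windows of 50 bases and upstream windows came from GENCODE release 44 mapped to GRCh37 (canonical transcripts, 204 members with a coding sequence and 205 with an upstream window), read with Biopython 1.88. Fingers were counted as cysteine, 2 to 4 residues, cysteine, 12 residues, histidine, 3 to 5 residues, histidine. Identity was 1 minus the edit distance over the longer protein, and pairs under 40% were not scored. Alternatives were other pseudocounts, filters, scalings, no trend, the replicate block, each library left out, other thresholds for on and off, and other gaps between clusters.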

Additional observations from a re-analysis of the deposited data

How the results depend on the processing

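The limma counts of 39 higher and 109 lower members became 10 and 59 with a mean FPKM of at least 2, which leaves fewer genes tested, and 57 and 63 with quantile normalization. Their median log2 fold change of -0.40 became -0.60 and -0.62 with pseudocounts of 0.1 and 0.01, -0.54 with a mean FPKM of at least 2, -0.19 after median ratio scaling and -0.0384 after quantile normalization; the cause was not tested. Leaving out each library in turn gave 36 to 38 higher members, 95 to 102 lower members and medians of -0.42 to -0.39. Without both control 2 and shSETD2 3, a fit chosen after seeing the data because their SETD2 levels crossed the labels, 34 were higher and 90 lower, 28 of the higher ones in the 2 clusters that held 31. KRAB partners called higher rose from 5 to 10 after median ratio scaling. Members on in shSETD2 only numbered 15 when on meant an FPKM of 0.5, and members on in control only numbered 1 after median ratio scaling. No share over all protein-coding genes is given beside these counts, so they cannot be read as results about members. Gaps of 0.5 and 2 Mb gave 21 and 10 clusters in place of 15. SETD2 (-0.58, limma adjusted p = 0.0641) passed the threshold with the replicate block (adjusted p = 0.0156), without control 2 (-0.83, adjusted p = 0.00666) and without shSETD2 3 (-0.73, adjusted p = 0.0420), and the other alternatives gave adjusted p of 0.0625 to 0.377; leave-one-out values ran from -0.83 to -0.45. Same-numbered libraries did not deviate together, with correlations of -0.0554 to 0.0628 over all 9 pairs of libraries. The replicate block gave 37 higher and 105 lower members and took ZNF765 and MORC2 out of the calls (adjusted p = 0.0621 and 0.0560). Among the genes named by rule, directions reversed after median ratio scaling for ZNF121 (0.0929), ZNF274 (0.17), ZNF350 (0.0592), ZNF765 (0.0334), ATF7IP (0.0486), MORC2 (0.12) and ATRX (0.13), and after quantile normalization for ZNF274 (0.13), ZNF350 (0.23), ZNF568 (0.10), ZNF765 (0.24) and ZNF799 (0.00363). Of these 64 genes, 48 kept their direction and side of the threshold in every alternative in which they were tested, and the filter at a mean FPKM of 2 held only 38 of the 64.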
